A study of Mus musculus with 10 samples.

Results

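The TspanC8 tetraspanins are the 6 mouse genes Tspan5, Tspan10, Tspan14, Tspan15, Tspan17 and Tspan33, chosen by name as the tetraspanin subgroup that partners the protease ADAM10. All 6 were found among the 52550 genes of the deposited table, and 4 of them were among the 14787 genes with enough reads to be tested. Tspan10 and Tspan15 did not pass that filter and are described by their reads alone. The RNA came from spleens of C57BL/6 mice, from precursors of conventional dendritic cells (cDCs, the cells that prime T cell responses). There were 3 libraries of wild-type (WT) pre-cDC1 (the precursors of the cross-presenting cDC1), 3 of KO pre-cDC1, 2 of WT pre-cDC2 (the precursors of cDC2) and 2 of KO pre-cDC2, where KO stands for CD11c-cre Adam10fl/fl. In these mice, Cre made under the promoter of CD11c, an integrin of dendritic cells and some other leukocytes, recombines loxP-flanked Adam10. The sample titles call the pre-cDC1 DN and the pre-cDC2 Ly6C, and the series title concerns shedding of the dendritic cell growth factor FLT3L by ADAM10. The sources used here give neither ages nor whether the WT mice carried Cre or floxed alleles.

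ADAM10 is a membrane-bound metalloprotease that cuts the outer part off many surface proteins, Notch receptors among them. It is made in the endoplasmic reticulum as an inactive precursor, and TspanC8 proteins bind it there, allow it to leave, and accompany it to the cell surface, where the proprotein convertases have removed its inhibitory prodomain. A cell can hold several of these partners, and each is known to steer ADAM10 to other places and substrates: Tspan5 and Tspan14 favour Notch cleavage, Tspan15 favours N-cadherin cleavage, Tspan17 acts with Tspan5 in endothelial cells, Tspan33 is prominent in erythroid cells and activated B cells, and Tspan10 is best known from pigmented cells of the eye. Transcript levels say nothing of protein or of ADAM10 activity, and neither was measured here.

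Tspan14, Tspan17 and Tspan33 together made up nearly all of the summed TspanC8 signal, so their promoters are shown first. All 6 genes were matched by symbol to 7 RefSeq promoter windows on GRCm38.p6, and the 250 bases before each start are given 5′ to 3′ on the gene's own strand. They are the windows at chr14:40966897-40967146 for Tspan14 (minus strand), chr13:54789155-54789404 for Tspan17 (plus strand) and chr6:29693964-29694213 for Tspan33 (plus strand). Capitals mark matches on either strand to the letters searched.
Tspan14: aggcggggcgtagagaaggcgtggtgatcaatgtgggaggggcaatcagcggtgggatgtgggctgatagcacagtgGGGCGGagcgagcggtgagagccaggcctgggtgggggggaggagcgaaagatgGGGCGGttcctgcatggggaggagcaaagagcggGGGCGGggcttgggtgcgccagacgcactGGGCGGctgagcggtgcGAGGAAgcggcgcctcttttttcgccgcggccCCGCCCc
Tspan17: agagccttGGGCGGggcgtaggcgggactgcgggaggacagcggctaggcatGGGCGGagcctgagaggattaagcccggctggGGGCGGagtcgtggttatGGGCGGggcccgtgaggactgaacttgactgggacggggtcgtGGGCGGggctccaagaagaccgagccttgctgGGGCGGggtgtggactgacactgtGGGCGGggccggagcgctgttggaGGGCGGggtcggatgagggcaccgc
Tspan33: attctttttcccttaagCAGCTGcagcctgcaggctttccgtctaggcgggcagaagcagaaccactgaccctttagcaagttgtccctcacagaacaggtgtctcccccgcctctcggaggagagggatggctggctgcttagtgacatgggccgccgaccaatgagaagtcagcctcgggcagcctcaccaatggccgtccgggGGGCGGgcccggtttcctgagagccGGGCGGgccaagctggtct
The GC box was searched as the letters GGGCGG, the core element bound by PU.1 as GAGGAA, and the E-box bound by E proteins as CAGCTG. The RBPJ element was searched as TGGGAA and the GATA factor element as AGATAA. GC boxes were the commonest match, with 5 in the Tspan14 window, 8 in that of Tspan17 and 2 in that of Tspan33, while 32.74% of 32851 mouse promoter windows of this length held at least 1. The Tspan14 window held 1 GAGGAA, 39 bases before the start, and 23.25% of all windows held one. A second annotated Tspan14 start, at chr14:40948210-40948459, had 3 GAGGAA and no GC box. CAGCTG was found once in the Tspan33 window, 233 bases before the start, against 13.0% of all windows, and not in those of Tspan14 or Tspan17. None of these 3 genes' windows held TGGGAA or AGATAA, which were in 21.59% and 9.99% of all windows. No printed match overlapped another. The 3 windows were rich in G and C, at 69.6%, 70.8% and 62.4% against a median of 52.4%. A match describes letters in a window and is neither a binding site nor a cause.

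Before the members, the libraries themselves were checked. Recovered totals ran from 7862449 to 13177686 reads per library, and because PCR reads carry no molecular identifiers, all intervals on reads cover counting error only. All 9 cDC1 marker genes were lower in pre-cDC2 than in pre-cDC1, in WT and in KO mice, whereas of 9 tested cDC2 marker genes 1 was higher in WT pre-cDC2 (Cd7) and 7 in KO pre-cDC2 (limma, adjusted p below 0.05). Genes that mark other cells were also higher in pre-cDC2: in WT and KO mice 10 and 14 of 14 T cell genes, 2 (Il2rb and Nkg7) and 10 of 11 NK cell genes, and 6 and 7 of 8 plasmacytoid dendritic cell (pDC) genes. Of 6 core cDC genes, 4 (Cd74, H2-Ab1, Kit and Zbtb46) were lower in pre-cDC2 in both genotypes. Over all tested genes, limma called 4.88% higher and 6.59% lower in WT pre-cDC2, and 10.7% higher and 10.1% lower in KO pre-cDC2. Some marker genes, such as Cd3e, passed the filter on low values only through pre-cDC2 libraries. With voom the WT counts were 7 cDC2 marker genes, 1 T cell gene, 0 NK cell genes and 7 pDC genes. The genes given by name here were named after their values were seen. The summed T cell genes took 8.36 to 39.8 RPM (reads scaled to the library total) in the 6 pre-cDC1 libraries. WT pre-cDC2 replicate 2 had 287 RPM of them, WT replicate 3 had 5087, and the KO pre-cDC2 libraries had 4048 and 3714. The summed pDC genes took 206 to 348 RPM in pre-cDC1, 3089 (replicate 2) and 1144 (replicate 3) among WT pre-cDC2 libraries, and 1361 and 1662 among KO ones. No T cell, NK cell or pDC marker was at 0 reads in any pre-cDC2 library. The 2 WT pre-cDC2 libraries were unlike each other, with a correlation across genes of 0.774 and 5205 genes more than 2-fold apart. The other pairs of a group had 0.867 to 0.886 and 2632 to 3194 genes. A value of the pair cannot tell which of the 2 libraries was the unusual one. The part that these other cells play in the results below was not tested, and in bulk RNA a smaller share of a cell type and less RNA per cell cannot be told apart. Nothing in the labels says that libraries of a group came from separate animals, so p-values measure only the spread between these libraries.

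Adam10, the targeted gene, was itself scarce in pre-cDC1. Its log2 RPKM (reads scaled to exon length and library size, the deposited scale) was -0.64, 0.13 and -2.29 in WT pre-cDC1, from 28, 48 and 10 reads, and -2.45, -3.90 and -1.50 in KO pre-cDC1, from 9, 3 and 13 reads. The WT pre-cDC2 libraries had 1.76 (replicate 2) and 4.53 (replicate 3), and the KO ones had 4.24 and 4.11. The genotypes overlapped in both cell types. The KO minus WT difference was -1.68 ± 0.92 (SE, 3 and 3 libraries, limma adjusted p = 0.644) in pre-cDC1 and 1.03 ± 1.12 (2 and 2 libraries, adjusted p = 0.884) in pre-cDC2. Reads from exons that Cre leaves in place count toward the gene as well, which means that these values are no check of the deletion. Adam10 was higher in pre-cDC2 by 4.08 ± 1.03 in WT (adjusted p = 0.0328) and by 6.79 ± 1.03 in KO (adjusted p = 0.00178). Its pre-cDC1 libraries alone would not have passed the filter on low values, so these calls are a description. Without that filter the limma adjusted p was 0.278 in WT and 0.0434 in KO. The WT call was lost when any of 6 libraries was left out: WT pre-cDC1 replicates 1 and 3, replicate 1 of KO pre-cDC1, WT pre-cDC2 replicate 3 (2.69), and each KO pre-cDC2 library (adjusted p 0.0502 to 0.223). Without WT pre-cDC2 replicate 2 the WT difference was 5.46. The lower of the WT pre-cDC2 values came from replicate 2, which also had the fewest T cell reads of the 4 pre-cDC2 libraries. The part of other cells in the Adam10 level was not tested.

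Per kilobase of transcript, Tspan14 was the most abundant TspanC8 transcript in all 10 libraries. The summed RPKM of the 6 genes was 62.0 ± 8.20 (SD, n = 3) in WT pre-cDC1, 46.7 ± 3.40 (n = 3) in KO pre-cDC1, 104 ± 40.2 (n = 2) in WT pre-cDC2 and 74.2 ± 15.3 (n = 2) in KO pre-cDC2. The 2 WT pre-cDC2 libraries were far apart, at 132 and 75.3. Tspan14 supplied 54.2% ± 5.87 (WT) and 56.3% ± 6.18 (KO) of it in pre-cDC1, but 83.4% ± 1.03 (WT) and 86.4% ± 2.10 (KO) in pre-cDC2. Tspan17 supplied 30.9% ± 7.04 (WT) and 22.5% ± 3.19 (KO) of it in pre-cDC1, and 13.5% ± 0.597 (WT) and 10.1% ± 0.947 (KO) in pre-cDC2. Tspan33 supplied 14.1% ± 2.28 (WT) and 20.9% ± 4.78 (KO) in pre-cDC1, and 0.335% ± 0.144 (WT) and 0.558% ± 0.129 (KO) in pre-cDC2. The lowest share of any of these 3 genes in a pre-cDC1 library was 12.3% (Tspan33), whereas Tspan33 reached at most 0.649% in a pre-cDC2 library. Tspan5 reached at most 3.23% of the sum in any library, and Tspan15 at most 1.95%.

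**Figure D1:**
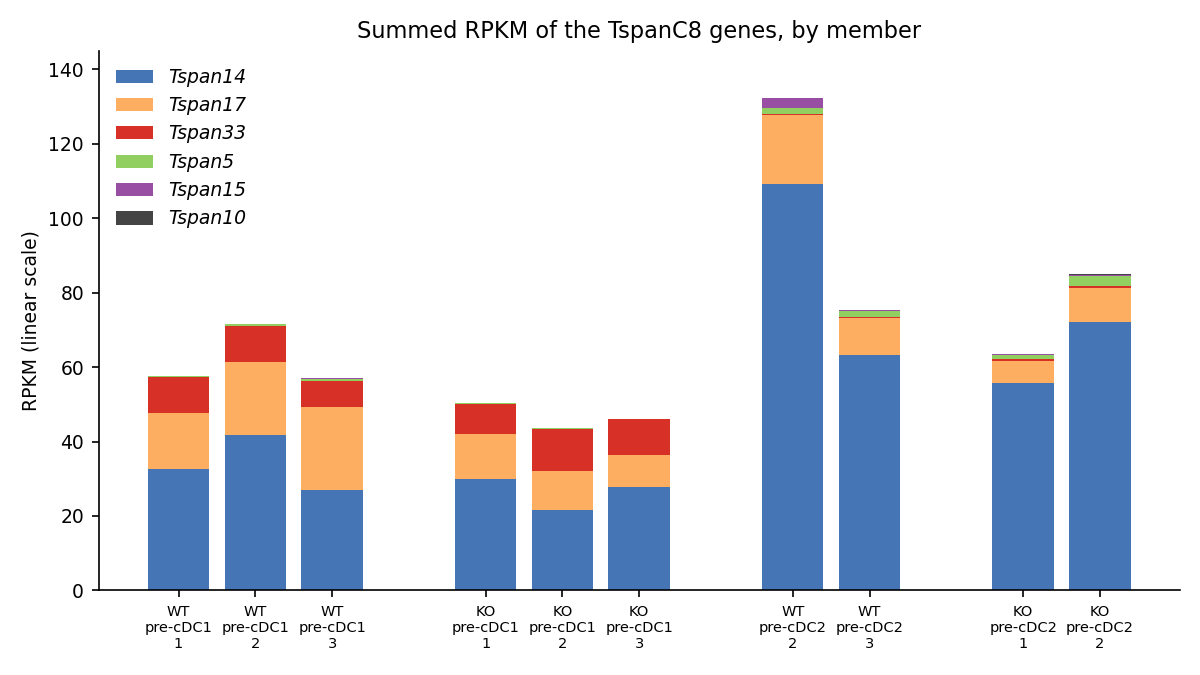
Summed RPKM of the 6 TspanC8 genes in each of the 10 libraries (stacked bars, linear axis from 0, 1 colour per gene). Tspan14 is the largest segment of every bar, Tspan33 is a wide segment in pre-cDC1 and a thin line in pre-cDC2, and WT pre-cDC2 replicate 2 has the tallest bar at 132 RPKM.

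The sum varied less between libraries than Adam10 did. The sum divided by Adam10 RPKM was 90.5, 65.5 and 285 in the WT libraries of pre-cDC1 and 283, 703 and 132 in the KO ones. Among pre-cDC2 libraries it was 39.1 and 3.26 (WT) and 3.37 and 4.92 (KO). All 6 pre-cDC1 ratios lay above all 4 pre-cDC2 ratios, on Adam10 values that rest on as few as 3 reads, and no test was made of this ratio. Among the tested genes, the mean level of Tspan14 exceeded that of 88.6% in pre-cDC1 and 96.19% in pre-cDC2. Adam10 exceeded 9.45% of genes in pre-cDC1 and 73.63% in pre-cDC2.

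Between the cell types, 2 of the 4 tested members differed in WT mice, Tspan14 higher and Tspan33 lower in pre-cDC2, where 11.5% of all tested genes were called (4.88% higher, 6.59% lower; limma, adjusted p below 0.05). In KO mice 3 of 4 differed, Tspan14 and Tspan5 higher and Tspan33 lower, where 20.8% of all tested genes were called (10.7% higher, 10.1% lower). Tspan5 passed the filter on low values only through its pre-cDC2 libraries and Tspan33 only through its pre-cDC1 libraries. The filter thus selected each through the cell type where it is high, and the counts are a description. Without that filter limma called 1 member in each genotype, Tspan33, and with the filter voom called 3 in each. The median difference of the 4 members was 0.42 in WT and 0.39 in KO, beside 0.06 and 0.09 over all tested genes. The WT and KO comparisons contrast different libraries, but both take their spread from 1 fit to all 10 libraries, so they are not separate tests. Groups did not overlap for 3 of the 4 tested members in each genotype (Tspan5, Tspan14 and Tspan33), as for 38.7% of tested genes in WT and 51.7% in KO. No member was called for a difference of the cell-type effect between genotypes (0 of 4 with limma, 0 at an unadjusted p under 0.05 and 0 with voom), where 0.0203% of tested genes were called.

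Tspan14, a partner that favours Notch cleavage by ADAM10 (chr14:40906445-40966807 in GRCm38, minus strand), had 5.03, 5.39 and 4.76 log2 RPKM in the WT libraries of pre-cDC1 and 4.90, 4.42 and 4.80 in the KO ones. Among pre-cDC2 libraries it had 6.77 and 5.99 (WT) and 5.80 and 6.17 (KO). These values came from 558 to 992 reads in pre-cDC1 libraries and 1452 to 3980 in pre-cDC2 libraries. Every pre-cDC2 library lay above every pre-cDC1 library, and the highest value was that of WT pre-cDC2 replicate 2. Tspan14 was higher in pre-cDC2 by 1.32 ± 0.27 in WT (SE, 95% interval 0.71 to 1.94, limma adjusted p = 0.0146, 2.50-fold) and by 1.28 ± 0.27 in KO (0.67 to 1.90, adjusted p = 0.0101, 2.43-fold). The WT call was lost without WT pre-cDC2 replicate 2 (0.93, adjusted p = 0.0589) or WT pre-cDC1 replicate 3 (1.17, adjusted p = 0.0506). The KO call was lost without replicate 2 of KO pre-cDC2 (1.09, adjusted p = 0.0946). Both calls were lost without the filter on low values (adjusted p = 0.167 in WT and 0.126 in KO). Several marker lists were also highest among pre-cDC2 libraries in WT replicate 2. The summed core cDC genes took 15725 RPM there against 5454 to 6311 in the other 3, the cDC2 markers 2811 against 1085 to 1390, the pDC markers 3089 against 1144 to 1662 and the red pulp macrophage markers 126 against 37.3 to 54.0. The cDC1, plasma cell, and monocyte and neutrophil lists were highest there too. The part of these lists in the Tspan14 difference was not tested.

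Tspan33, the partner of erythroid and activated B cells (chr6:29694222-29718559, plus strand), showed the widest contrast among the tested members. Its log2 RPKM was 3.26, 3.26 and 2.81 in the WT libraries of pre-cDC1 and 3.04, 3.50 and 3.25 in the KO ones. Among pre-cDC2 libraries it was -1.68 and -1.58 (WT) and -1.26 and -1.32 (KO). As reads, pre-cDC1 libraries held 370 to 576 and pre-cDC2 libraries 18 to 22. The cell types were separated by a wide gap with no library between them. Tspan33 was lower in pre-cDC2 by 26.8-fold in WT (log2 difference -4.74 ± 0.33, SE, 95% interval -5.49 to -3.99, limma adjusted p = 3.60e-05) and by 23.5-fold in KO (-4.55 ± 0.33, -5.30 to -3.80, adjusted p = 3.87e-05). WT pre-cDC2 replicate 2, which had far fewer T and NK cell reads than the other pre-cDC2 libraries, was at -1.68. Without it the WT difference was -4.70. The part of T and NK cells in the Tspan33 values was not tested. With 1 RPKM added before the log2, the differences were -2.87 in WT and -2.91 in KO. Tspan33 exceeded 67.83% of tested genes in pre-cDC1 and 7.43% in pre-cDC2. The summed cDC1 markers moved with it, at 9002 to 11964 RPM among pre-cDC1 libraries and 1110 to 2706 RPM among pre-cDC2 libraries, and their part in the result was not tested.

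Tspan5, the other partner that favours Notch cleavage (chr3:138742195-138907905, plus strand, overlapped by the antisense pseudogene Gm16060), was scarce everywhere. Among pre-cDC1 libraries it had 11, 36 and 27 reads (WT; -2.56, -0.87 and -1.46 log2 RPKM) and 13, 13 and 1 (KO; -2.52, -2.46 and -5.56). Among pre-cDC2 libraries it had 158 and 119 reads (WT; 0.64 and 0.54 log2 RPKM) and 81 and 177 (KO; 0.16 and 1.46). All 4 pre-cDC2 libraries lay above all 6 pre-cDC1 libraries, and KO pre-cDC1 replicate 3, with 1 read, was lowest. The difference between cell types was 4.32 ± 1.12 in KO (SE, 95% interval 1.80 to 6.85, limma adjusted p = 0.0241) and 2.22 ± 1.12 in WT (-0.30 to 4.74, adjusted p = 0.256). The 2 differences themselves differed by 2.10 ± 1.59 (adjusted p = 0.987). The KO call was lost without the filter on low values (adjusted p = 0.141), with only the compared groups (0.0679), and without KO pre-cDC2 replicate 1 (4.97, adjusted p = 0.0755) or replicate 2 (3.67, adjusted p = 0.158), and the difference was 3.3 without KO pre-cDC1 replicate 3. With voom on the recovered reads the WT difference was 2.41 (adjusted p = 0.0352). Since no source used here gives the strand setting of the counting, reads of Gm16060 could not be separated from those of Tspan5.

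Tspan17, a partner of ADAM10 in endothelial cells (chr13:54789377-54796776, plus strand), was the only tested member whose cell types overlapped. Its difference between pre-cDC2 and pre-cDC1 was -0.47 ± 0.31 in WT (SE, limma adjusted p = 0.396) and -0.50 ± 0.31 in KO (adjusted p = 0.305). It had the second-highest level in both cell types, above 76.76% of tested genes in pre-cDC1 and 68.46% in pre-cDC2. In WT pre-cDC1 its libraries lay above those of Tspan33, the next member, whereas in KO pre-cDC1 the libraries of the 2 genes overlapped (3.12 to 3.60 and 3.04 to 3.50).

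**Figure D2:**
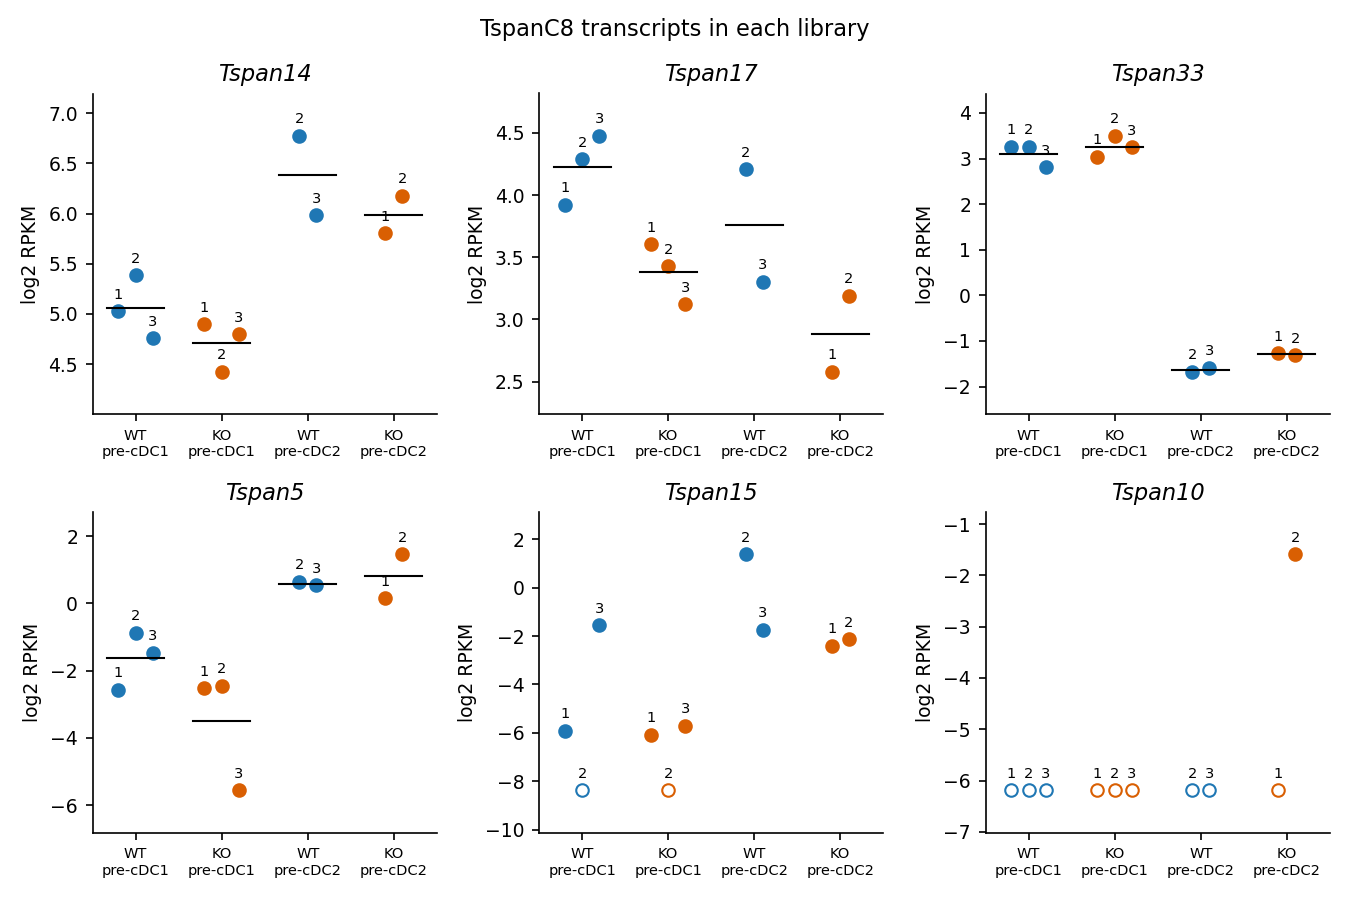
Log2 RPKM of each TspanC8 gene in each library (points numbered by replicate, blue WT and orange KO, open points for 0 reads, black lines for group means in the 4 tested genes). Tspan33 runs from 2.81 to 3.50 in pre-cDC1 and from -1.68 to -1.26 in pre-cDC2, Tspan14 and Tspan5 are higher in all pre-cDC2 libraries, and Tspan17 is lower in KO within each cell type.

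The untested members were close to absent in pre-cDC1. Tspan15, the partner that favours N-cadherin cleavage (chr10:62185396-62231251, minus strand, host of Mir7662), had 1, 0 and 28 reads in the WT libraries of pre-cDC1 and 1, 0 and 1 in the KO ones. Among pre-cDC2 libraries it had 290 and 27 reads (WT) and 15 and 16 (KO). The 290 reads of WT pre-cDC2 replicate 2 (exact 95% Poisson interval 258 to 325, 2.58 RPKM) stand apart from the other 3 pre-cDC2 libraries, which had 0.187 to 0.296 RPKM. In pre-cDC1 the 28 reads of WT replicate 3 (18.6 to 40.5) likewise stand apart from the 0 or 1 of the other 5 libraries. Tspan10 (chr11:120442644-120446950, plus strand) had 0 reads in 9 libraries and 5 reads (1.62 to 11.7) in KO pre-cDC2 replicate 2, or 0.318 RPKM. In those 9 libraries, 3 reads, about the one-sided 95% Poisson limit on a count of 0, would be 0.121 to 0.220 RPKM. The exact two-sided interval used for the other counts reaches 3.69 reads.

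Between the genotypes, no TspanC8 gene passed the threshold in either cell type. Of the 4 tested members, 0 were called in pre-cDC1, where 0.0271% of all tested genes were called, and 0 in pre-cDC2, where 0.0676% were (limma, adjusted p below 0.05). At an unadjusted limma p under 0.05 there was 1 member in each cell type, Tspan17 both times. Of all 14787 tested genes, 1335 in pre-cDC1 and 987 in pre-cDC2 had such a p. voom on the recovered reads called 0 members in both, and had 1 in pre-cDC1 and 0 in pre-cDC2 at an unadjusted p under 0.05. The median difference of the 4 members was -0.60 in pre-cDC1 and -0.08 in pre-cDC2, where the medians over all tested genes were 0.00 on the same log2 scale. Groups did not overlap for 1 of 4 members in pre-cDC1 (Tspan17; 17.2% of tested genes) and for 2 of 4 in pre-cDC2 (Tspan17 and Tspan33; 30.2% of tested genes).

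Tspan17 had 3.92, 4.29 and 4.48 log2 RPKM in the WT libraries of pre-cDC1 (225, 290 and 375 reads) and 3.60, 3.43 and 3.12 in the KO ones (207, 175 and 109 reads). Among pre-cDC2 libraries it had 4.21 and 3.3 in WT (420 and 182 reads) and 2.58 and 3.19 in KO (97 and 132 reads). Every KO library lay below every WT library of its cell type, which held for 9.27% of tested genes in pre-cDC1 and 14.6% in pre-cDC2. The KO minus WT difference was -0.84 ± 0.28 in pre-cDC1 (SE, 95% interval -1.47 to -0.21, limma adjusted p = 0.371) and -0.87 ± 0.34 in pre-cDC2 (-1.64 to -0.10, adjusted p = 0.693). Averaged over both cell types, a contrast chosen after seeing the data, it was -0.86 ± 0.22 (-1.36 to -0.36, adjusted p = 0.179), where 0.108% of all tested genes were called. None of these passed the adjusted threshold. Marker lists moved with Tspan17 in pre-cDC1. The summed cDC2 markers took 394, 468 and 458 RPM in the WT libraries and 122, 84.5 and 67.5 in the KO ones, with 0 or 1 of the genes at 0 reads in WT and 1 to 3 in KO. Of 9 tested cDC2 markers, limma and voom each called 0 there, and each had 7 at an unadjusted p under 0.05. Over all 14787 tested genes, limma had 1335 such p-values there. The T cell markers took 20.5 to 39.8 RPM in WT against 8.36 to 15.5 in KO, and the pDC markers 282 to 348 against 206 to 233. Also lower in KO were the B cell (875 to 926 against 612 to 671) and plasma cell markers (275 to 327 against 213 to 250). The monocyte and neutrophil markers took 3057 to 3173 against 2233 to 2683. In the other direction, the cDC1 markers took 9002 to 9383 against 10825 to 11964. The core cDC, NK cell, erythroid, red pulp macrophage and platelet lists overlapped between the genotypes in pre-cDC1. In pre-cDC2 the cDC2 markers of the genotypes overlapped, at 2811 and 1085 RPM in WT and 1312 and 1390 in KO. The part of these cells in the Tspan17 and Tspan5 values was not tested. Without WT pre-cDC2 replicate 2 the pre-cDC2 difference was -0.42, and without replicate 3 it was -1.32.

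For the other tested members the genotype intervals all contained 0. The KO minus WT difference of Tspan14 was -0.35 ± 0.24 in pre-cDC1 (SE, 95% interval -0.90 to 0.20, limma adjusted p = 0.755) and -0.39 ± 0.30 in pre-cDC2 (-1.06 to 0.28, adjusted p = 0.845). That of Tspan33 was 0.15 ± 0.30 in pre-cDC1 (-0.52 to 0.82, adjusted p = 0.952) and 0.34 ± 0.36 in pre-cDC2 (-0.48 to 1.16, adjusted p = 0.882). Of 11 tested erythroid genes, limma called 2 higher in KO pre-cDC2 (where it called 0.0676% of all tested genes) and voom called 0, with 6 and 7 at an unadjusted p under 0.05. Over all 14787 tested genes, limma had 987 such p-values there. The 2 genes called were Hba-a1 (by 3.46, adjusted p = 0.0283), whose reads may be shared with a near-identical copy, and Slc4a1 (adjusted p = 0.00394), which had 0 reads in both WT libraries and 100 and 230 in the KO ones. The summed list took 14.3 and 48.8 RPM (WT) and 83.2 and 148 RPM (KO) among pre-cDC2 libraries, with 6 of 14 genes at 0 reads in each WT library and 0 of 14 in each KO library. Its part in the Tspan33 values was not tested. For Tspan5 the difference was -1.88 ± 1.00 in pre-cDC1 (-4.14 to 0.38, adjusted p = 0.632) and 0.22 ± 1.23 in pre-cDC2 (-2.54 to 2.99, adjusted p = 0.993). Without KO pre-cDC1 replicate 3, the library with 1 read, the pre-cDC1 difference was -0.85 (adjusted p = 0.892). The Tspan5 intervals span several log2 units, so that a 4-fold fall in either cell type would lie inside them.

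**Figure D3:**
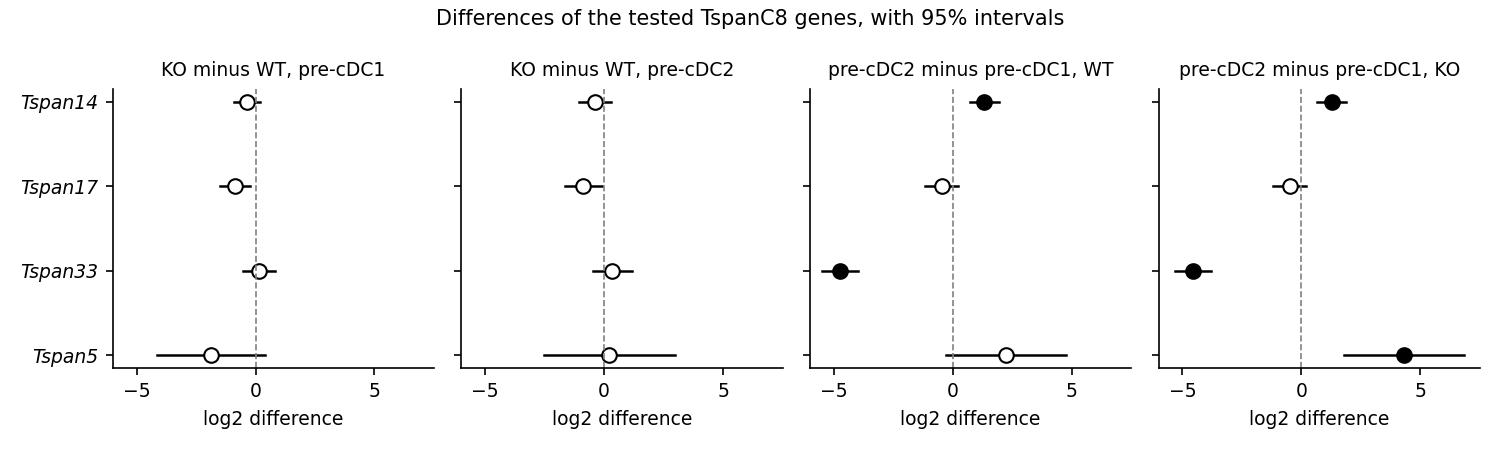
Log2 differences of the 4 tested TspanC8 genes with 95% intervals from limma, for KO minus WT in each cell type and for pre-cDC2 minus pre-cDC1 in each genotype (filled points for an adjusted p below 0.05). Tspan33 lies far below 0 and Tspan14 above 0 between cell types in both genotypes, and Tspan17 lies near -0.85 between genotypes in both cell types.

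For comparison, 25 tetraspanins outside the TspanC8 subgroup were looked up by name, and 16 were tested. They are membrane organizers too, and some of them, such as Tspan12 (not tested), have also been reported to bind ADAM10. Between cell types, 0 were higher and 2 lower in WT pre-cDC2 (Cd9 and Cd81), and 2 were higher (Tspan4 and Tspan32) and 2 lower (Cd9 and Cd81) in KO pre-cDC2, with list medians of -0.05 and -0.19. The share called over all tested genes was 11.5% in WT and 20.8% in KO. Tspan32 passed the filter on low values only through its pre-cDC2 libraries. Cd9, a partner of integrins, was 5.97 to 6.60 log2 RPKM in the pre-cDC1 libraries and 2.70 to 3.27 in the pre-cDC2 libraries. It was lower in pre-cDC2, with log2 differences of -3.59 ± 0.20 in WT (SE, limma adjusted p = 8.59e-06) and -3.11 ± 0.20 in KO (adjusted p = 1.61e-05). Cd81, the tetraspanin of the B cell co-receptor, was lower as well, with differences of -3.45 ± 0.61 in WT (adjusted p = 0.00748) and -5.07 ± 0.61 in KO (adjusted p = 0.000596). WT pre-cDC2 replicate 2 held Cd81 at 5.26, between the 7.18 to 7.60 of pre-cDC1 and the 2.41 to 2.44 of the other pre-cDC2 libraries, and without it the WT difference was -4.87 (without replicate 3, -2.03). The WT call of Cd81 was lost without the filter on low values (adjusted p = 0.1325), with only the compared groups (0.109) and with genotype and replicate number as a block (0.0870). Tspan4, a tetraspanin of migrasomes, was higher in KO pre-cDC2 by 1.30 ± 0.28 (adjusted p = 0.0103), a call lost without either KO pre-cDC2 library (adjusted p 0.0566 and 0.0693). Its WT libraries were 1.64 to 2.02 in pre-cDC1 and 1.75 and 1.81 in pre-cDC2. With limma, Tspan33 was thus one of 3 tested tetraspanins called lower in pre-cDC2 in both genotypes, and Tspan14 the only one called higher in both. voom also called Tspan5 higher in both (2.41, adjusted p = 0.0352 in WT and 4.38, adjusted p = 0.00416 in KO), and it called 4 of the 16 other tetraspanins in WT and 6 in KO. Between genotypes limma called 0 of the 16 in either cell type, with 1 in pre-cDC1 (Tspan4) and 0 in pre-cDC2 at an unadjusted p under 0.05, and voom called 0 in both. Over all 14787 tested genes, limma had 1335 such p-values in pre-cDC1 and 987 in pre-cDC2.

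**Figure D4:**
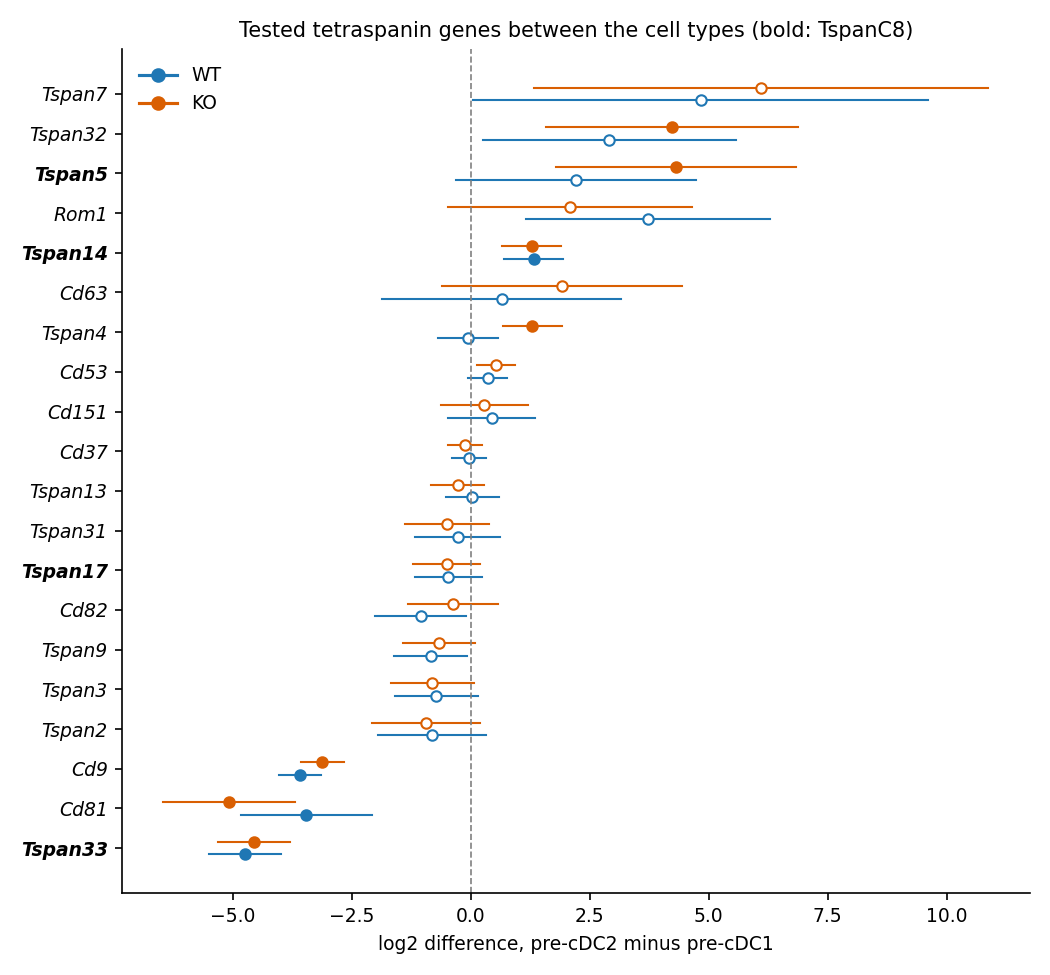
Log2 difference between pre-cDC2 and pre-cDC1 of each tested TspanC8 gene and each tested other tetraspanin, in WT and in KO mice (points with 95% intervals from limma, filled where the adjusted p is below 0.05). Tspan33, Cd9 and Cd81 are the called genes below 0 in both genotypes, and Tspan14 is the called gene above 0 in both.

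Genes that act on the same protease were described from lists named by function. Of 7 tested genes of ADAM10 maturation and inhibition, 2 were higher and 1 lower in WT pre-cDC2, where 11.5% of all tested genes were called. In KO pre-cDC2, where 20.8% of all tested genes were called, 3 were higher and 0 lower. Besides Adam10 these were Pcsk7, a convertase that removes the ADAM10 prodomain, higher by 0.75 ± 0.17 in WT (SE, limma adjusted p = 0.0231) and 0.74 ± 0.17 in KO (adjusted p = 0.0155). Dlg1, a scaffold that binds ADAM10, was lower in WT pre-cDC2 (difference -1.05 ± 0.25, adjusted p = 0.0273), and Reck, a membrane-anchored metalloprotease inhibitor, was higher in KO pre-cDC2 by 7.35 ± 1.95 (adjusted p = 0.0262). The WT call of Pcsk7 was lost without any 1 of the 3 WT pre-cDC1 libraries or without WT pre-cDC2 replicate 3 (adjusted p 0.0508 to 0.0798), and its KO call without either KO pre-cDC2 library (0.0700 and 0.0994). The Dlg1 call was lost without any of the 5 WT libraries (0.0549 to 0.0919), and the Reck call without either KO pre-cDC2 library (0.131 and 0.139), without the filter (0.257) and with only the compared groups (0.0756). Reck had 9, 0 and 23 reads in KO pre-cDC1, and its KO difference was 5.32 without replicate 2, the library with 0, and 3.57 with 1 RPKM added. It passed the filter on low values only through its pre-cDC2 libraries, so its call is a description. Reck was 0.61 in WT pre-cDC2 replicate 2 and 3.73 to 3.99 log2 RPKM in the other pre-cDC2 libraries, the same split that Adam10 showed.

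Of 18 tested ADAM10 substrates, 3 were higher (Lag3, Flt3l and Fasl) and 2 lower (Havcr2 and Cxcl16) in WT pre-cDC2, and 9 higher and 5 lower (Havcr2, Cxcl16, App, Alcam and Notch2) in KO pre-cDC2. For these counts and those of gamma-secretase below, the share over all tested genes was 11.5% in WT and 20.8% in KO. Fasl, Cdh1 and Cdh5 passed the filter on low values only through their pre-cDC2 libraries. Fcer2a would not have passed through its pre-cDC1 libraries alone. All of them were among the substrates called higher in KO pre-cDC2, so the substrate counts are a description. Havcr2 (TIM-3, an inhibitory receptor) had 7.16 to 7.62 log2 RPKM among pre-cDC1 libraries and 0.35 to 0.95 among pre-cDC2 libraries, a difference of -6.33 ± 0.18 in WT (SE, limma adjusted p = 1.73e-07) and -6.85 ± 0.18 in KO (adjusted p = 7.86e-08). Cxcl16, a membrane-bound chemokine, was lower too, with differences of -4.42 ± 0.62 in WT (adjusted p = 0.00244) and -4.96 ± 0.62 in KO (adjusted p = 0.000717). Lag3, an inhibitory receptor of T cells and pDCs, was higher by 3.39 ± 0.49 in WT (adjusted p = 0.00273) and 3.83 ± 0.49 in KO (adjusted p = 0.000771). Without WT pre-cDC2 replicate 2 the WT differences were -5.84 for Cxcl16, 2.52 for Lag3 and -3.65 for Aph1c, and without replicate 3 they were -3.01, 4.26 and -2.05. The WT calls of these 3 genes were each lost without the filter, with only the compared groups and with the genotype and number block (adjusted p 0.0640 to 0.104). Of 7 tested genes of gamma-secretase, which cuts Notch after ADAM10 has done so, 1 was lower in WT pre-cDC2 (Aph1c, -2.85 ± 0.50, adjusted p = 0.00669), and in KO pre-cDC2 1 was higher (Psenen, 0.88 ± 0.23, adjusted p = 0.0238, lost without KO pre-cDC1 replicate 1 or 2 or without replicate 1 of KO pre-cDC2, at 0.0636 to 0.198) and 1 lower (Aph1c, -4.32 ± 0.50, adjusted p = 0.000466). Between genotypes, limma and voom each called 0 genes of these 3 lists in either cell type. At an unadjusted p under 0.05 limma had 0, 4 (Fcer2a, Cdh1, Axl and Cdh5) and 0 genes of the maturation, substrate and gamma-secretase lists in pre-cDC1, and 1 (Dlg1), 0 and 2 (Aph1c and Psenen) in pre-cDC2. Over all 14787 tested genes, limma had 1335 such p-values in pre-cDC1 and 987 in pre-cDC2. The 4 substrates had few reads in KO pre-cDC1. Fcer2a had 0 in each library, Cdh1 had 4, 0 and 0, Cdh5 had 4, 2 and 2, and Axl had 19, 0 and 8. Tspan32, Fasl, Flt3l, App, Alcam, Notch2 and Cdh5 were named after their values were seen.

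As a description over the 10 libraries, with no test, the genes most like each tested member were ranked by Pearson's r of log2 RPKM among 8658 genes with a mean of at least 1. For Tspan33 these were Ppt1 and Xcr1 (the chemokine receptor of cDC1; both 0.996), Havcr2 and Snx22 (both 0.995) and Sgms1 (0.994), and 6.41% of candidates had r above 0.9. For Tspan14 they were Gpx4 (0.974), Rab11fip5 (0.972), Bst2 (0.970, a surface protein of pDCs), Smim24 (0.969) and Fth1 (0.967), with 1.79% above 0.9. For Tspan5 they were Ddx47 (0.972), Sorl1 (0.970), Flcn and Irf4 (both 0.959) and Zcchc6 (0.952), with 0.68% above 0.9. For Tspan17 they were Zhx1 (0.957), Sik1 (0.941), Egr1 (0.934), Plekhf2 (0.933) and Ascc1 (0.931), with 0.17% above 0.9. Tspan17 had the fewest close companions, and Xcr1, Havcr2, Bst2 and Irf4 of the other 3 lists follow the split between cell types. For Irf4, limma called the difference in KO (5.06, adjusted p = 0.0104) but not in WT (2.39, adjusted p = 0.211). Like Tspan5, Irf4 was lowest in KO pre-cDC1 replicate 3 (-2.84 log2 RPKM, 5 reads). All points share the same libraries, and the difference between cell types alone gives a high r.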

How the data were processed

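The 10 libraries of splenic pre-cDC1 and pre-cDC2 were compared. Per the labels' protocols, 2 ng of total RNA from PicoPure columns, with ERCC spike-ins, were amplified by SMARTSeq v2 and sequenced as read pairs on a HiSeq instrument. The tools were, per the submitters' processing notes, STAR 2.3, featureCounts 1.5.0, edgeR and R 3.3.3 with GRCm38 (mm10). The sources used here give neither strand setting nor annotation release. The deposited values are log2 RPKM of 52550 genes, normalized by the authors. Whole reads were recovered from them with GENCODE M21 exon lengths: all 490350 values of the 49035 genes with a length came out whole within 0.001, and the other 3515 genes were solved from their values. 90 gene names are shared by several identifiers.

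In R 4.3.3, a limma 3.58.1 model with 4 group means was fitted to the deposited values of all 10 libraries (eBayes with a trend, 6 residual and 3.31 prior degrees of freedom) for the 14787 genes that exceeded 0 log2 RPKM in 2 or more libraries. All tests are two-sided, with Benjamini-Hochberg adjusted p-values within each of 5 comparisons and 0.05 as threshold. The members, the gene lists and the naming rule (all members, Adam10, the 3 genes of a list with the smallest p in a comparison, and the 5 most similar genes) were chosen with earlier results of these data known. Hba-a1, Slc4a1 and the other markers given by name were named after their values were seen. The fitting code was run on simulated reads with planted differences and the same spread in every group. That run is no check of calls in groups as uneven as WT pre-cDC2. voom on the recovered reads, without normalization factors, called 0 genes in pre-cDC1 and 4 in pre-cDC2 between genotypes. Alternatives were other filters, scalings and sample sets, replicate blocks and leaving out each library. Promoters are RefSeq's on GRCm38.p6. The labels do not say whether same-numbered libraries share an animal. Such libraries did not deviate together, but that check cannot show that they came from separate animals. The main fit did not use numbers as pairs.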

Additional observations from a re-analysis of the deposited data

How the results depend on the processing

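Tspan33 stayed lower in pre-cDC2 in all 18 alternatives of each genotype (log2 difference -5.05 to -2.87 in WT and -5.20 to -2.91 in KO; highest adjusted p 0.0276 and 0.0150). The Tspan14 call was lost in 5 of 18 alternatives in WT and 3 of 18 in KO, the Tspan5 call in KO in 6 of 17. Alternatives that left out a library of an uncompared group kept the difference and changed only the shared spread. Of the other named genes, the calls of Cd9 and Havcr2 in both genotypes and of Cd81, Cxcl16, Lag3, Aph1c and Adam10 in KO were kept in all 18 alternatives; in WT those of Cd81, Cxcl16, Lag3 and Aph1c were lost in 3, of Pcsk7 in 8, and of Dlg1 and Adam10 in 10; in KO those of Tspan4 and Pcsk7 were lost in 3, of Reck in 4 and of Psenen in 7. The number of members called between cell types (2 in WT, 3 in KO) became 1 and 1 without the filter, 1 in WT with only the compared groups, and 1 and 1 with genotype and replicate number as a block; leaving out a library gave 1 to 2 and 1 to 3.

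Counts of all called genes moved more. KO against WT in pre-cDC1 (4) gave 19 without the filter, 18 with the stricter one, 2 with 1 RPKM added, 9 after quantile normalization, 53 with only the compared groups, 0 with voom and 0 with the replicate block; in pre-cDC2 (10) it gave 177, 5, 0, 4 and 2 without the filter, with 1 RPKM, the compared groups, voom and the block. Between cell types, WT (1697) gave 701 without the filter, 460 with the compared groups and 217 with the genotype and number block; KO (3074) gave 1392 without the filter and 1094 with that block. The interaction (3) gave 139, 1, 6, 1 and 0 without the filter, with the stricter filter, quantile, voom and the block. Leaving out a library gave 0 to 114 (pre-cDC1), 5 to 1048 (pre-cDC2), 999 to 2722 (WT), 1418 to 3887 (KO) and 0 to 495 (interaction), the highest without WT pre-cDC2 replicate 3 except for WT, where it was without replicate 2. The cause was not tested. Same-numbered libraries did not deviate together (correlations of -0.030 to 0.032), which cannot show whether they shared an animal. The block pairs numbers only.

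With voom, which changed the scaling (to total reads), the prior and the weights together, the median of all tested genes was 0.26 in WT and 0.35 in KO between cell types (0.06 and 0.09 as deposited), and the calls were 1421 higher and 839 lower in WT (722 and 975 as deposited) and 2589 and 1054 in KO (1575 and 1499). Relative to those medians, Tspan14 differed by 1.29 and 1.19 and Tspan33 by -4.77 and -4.62.

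Differences that changed sign had not passed the threshold. They were Tspan33 in the interaction (-0.044 with 1 RPKM, -0.15 after quantile normalization) and in KO against WT pre-cDC1 (-0.0015 to 0.26 when a library was left out), Tspan5 in KO against WT pre-cDC2 (-0.048 with the block, -0.83 averaged over cell types, -0.43 to 0.87 when a library was left out), Adam10 there (-0.32 averaged, -0.35 to 2.42 when a library was left out) and Tspan14 there (-0.78 to 0.0032 when a library was left out). In the interaction, leaving out a library gave -0.48 to 0.42 for Tspan17 and -0.43 to 0.35 for Tspan14. Depth limits Tspan5, Tspan10, Tspan15 and Adam10 in pre-cDC1, which rest on 48 reads or fewer per library.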
